A study of Mus musculus with 6 samples.

Results

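The genes described here are 10 genes that microglia and other macrophages use when they engulf debris and digest lipid: Trem2, Tyrobp, Cst7, Lpl, Spp1, Gpnmb, Cd68, Axl, Cd9 and Apoe. They were taken by symbol from the 22095 genes of a table of RNA sequencing read counts, and all 10 were found. The libraries were made from the olfactory bulbs of mice of the outbred strain ICR, 3 animals numbered 1037, 1038 and 1039. In each mouse the left naris was closed with a silica gel plug at postnatal day 30, the mice were perfused with PBS 60 days later, and the bulbs were dissected. Each mouse gave the left bulb (plugged side) and the right bulb (open naris), and each bulb gave 1 library. No unplugged mouse was among the samples, so a difference between the sides that exists without a plug cannot be told apart from one that follows it. Whole bulbs were sequenced, so more cells of a type and more RNA per cell cannot be told apart either.

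Microglia are the resident macrophages of the brain. Trem2 is a surface receptor for lipids and lipoproteins, and it signals through the adaptor Tyrobp, also called DAP12. In microglia that meet myelin debris, dying cells or amyloid, these genes are known to rise together while genes of resting microglia fall, a state often called disease-associated. In the bulb, where the axons of sensory neurons and newly made interneurons turn over throughout life, microglia take up debris. Several of the 10 genes are also made by other cells: Apoe mainly by astrocytes, Cd9 and Axl by several glial and vascular cells, and Spp1 and Lpl by some neurons.

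The libraries held 14571453 to 15590938 counts. A count of 0 allows up to 3 counts, which is 0.192 to 0.206 CPM (counts scaled by the library total), and limits and intervals of this kind cover counting error only. The library labelled left 1038 went against its label. Summed over 6 genes of cerebellar neurons it held 4456 CPM, against 18.8 to 28.0 CPM in the other libraries, and summed over 7 genes of bulb interneurons it held 11.2 CPM, against 1271 to 1628 CPM. It was therefore shown apart, and the sides were compared in the other 5 libraries, which are left 1037, left 1039 and the 3 right bulbs. In these edgeR's quasi-likelihood test called 1387 of 14412 genes at an adjusted p under 0.05 (9.62%). The share called higher on the left was 3.16%, and the share called lower was 6.46%, which is 456 and 931 genes. With libraries scaled by their totals alone this split became 975 and 589. Fewer genes were called on leaving out right 1038 (660), right 1037 (669) or left 1039 (885). With all 6 libraries it called 0 of 14209 genes (0%), with 1196 at an unadjusted p under 0.05.

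The 10 genes did not move together. On the left Tyrobp rose, Spp1 and Gpnmb fell, 6 genes did not pass the test, and Cst7 had too few reads to be tested. Thus 1 of the 9 tested was called higher, beside 3.16% of all genes tested, and 2 of the 9 were called lower, beside 6.46%. Without right 1038 or without left 1039, Spp1 alone of the 10 was called.

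**Figure D1:**
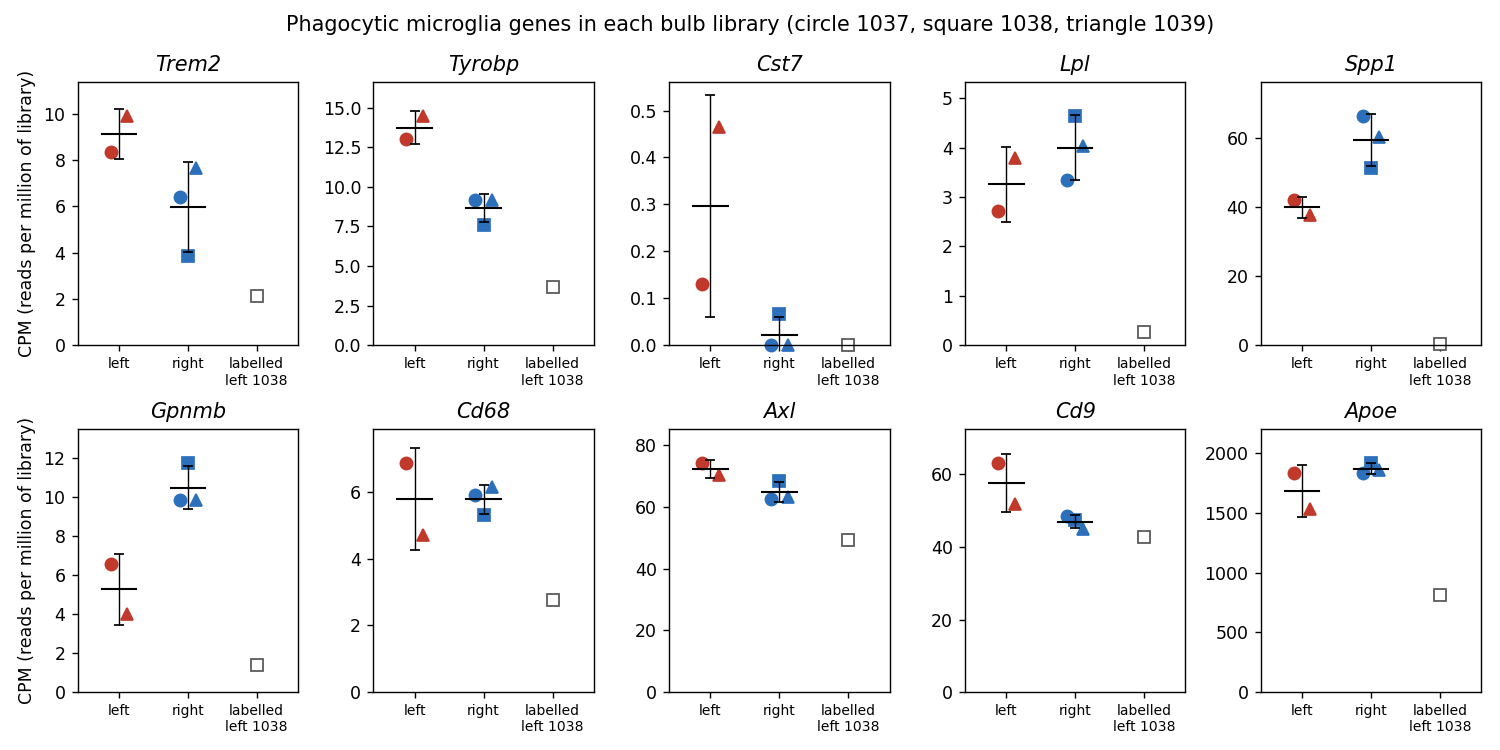
Read counts of the 10 genes in CPM (vertical axes from 0, each gene on its own scale) by library. Red symbols are left bulbs, blue symbols right bulbs and open squares the library labelled left 1038, with horizontal lines and bars for the mean ± SD of 2 left and 3 right bulbs. Tyrobp sits at 13.02 and 14.47 CPM on the left and at 7.62 to 9.17 CPM on the right, while Spp1 and Gpnmb sit lower on the left.

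Upstream sequences of the genes were taken from RefSeq (GRCm38.p6), where 8 of the 10 symbols matched. Those of Trem2, Spp1 and Gpnmb are shown because they belong to the receptor of the pathway and to the called genes with an entry. Each is the 250 bases before a RefSeq start, 5′ to 3′ on the plus strand, and lies at chr17:48346151-48346400, chr5:104434861-104435110 and chr6:49036268-49036517. Capitals mark GAGGAA or its reverse complement TTCCTC, the core of the site of PU.1, a transcription factor that macrophages need.
Trem2: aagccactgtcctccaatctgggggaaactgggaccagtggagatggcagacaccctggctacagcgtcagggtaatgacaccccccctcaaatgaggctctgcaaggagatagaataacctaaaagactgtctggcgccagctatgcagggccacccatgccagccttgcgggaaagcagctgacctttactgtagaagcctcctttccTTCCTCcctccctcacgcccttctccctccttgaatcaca
Spp1: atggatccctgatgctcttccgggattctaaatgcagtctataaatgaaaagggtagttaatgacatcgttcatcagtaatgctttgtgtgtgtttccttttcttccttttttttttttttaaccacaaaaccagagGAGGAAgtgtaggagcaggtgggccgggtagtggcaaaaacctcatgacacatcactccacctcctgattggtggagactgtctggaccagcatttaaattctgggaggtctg
Gpnmb: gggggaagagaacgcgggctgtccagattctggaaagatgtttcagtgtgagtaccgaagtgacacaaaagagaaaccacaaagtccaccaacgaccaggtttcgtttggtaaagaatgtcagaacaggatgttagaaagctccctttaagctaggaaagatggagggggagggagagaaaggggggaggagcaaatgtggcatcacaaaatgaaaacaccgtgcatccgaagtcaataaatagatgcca
The match begins 40 bases before the start in Trem2 and 113 bases before it in Spp1, and the window of Gpnmb held 0 matches. RefSeq gives Spp1 another start as well, and the window before it (chr5:104435942-104436191) held 0 matches. Of 32817 such windows of all genes 23.3% held this motif. The E-box letters CACGTG and CATGTG (both strands), cores of sites of Mitf and related factors, were in none of these 3 windows, and they occurred in 6.02% and 12.3% of all windows. A match of this kind is a description of the letters.

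Levels of different genes were compared as CPM per kilobase of the longest protein-coding transcript. Averaged over the 5 libraries, Apoe stood far above the others at 1274 CPM per kilobase (1087 to 1361). Cd9 at 41.7 (36.6 to 51.4) and Spp1 at 34.3 (25.1 to 44.1) followed, with ranges that overlapped. Tyrobp, at 18.9 CPM per kilobase (13.5 to 25.7), and Axl, at 15.9 (14.6 to 17.4), overlapped as well, and the range of Spp1 met that of Tyrobp. Trem2 stood at 6.65 CPM per kilobase (3.53 to 9.09) and Cd68 at 4.70 (3.83 to 5.58), again with overlap. Gpnmb at 2.26 (1.08 to 3.17), Lpl at 0.899 (0.661 to 1.13) and Cst7 at 0.134 (0 to 0.471) closed the order, and the range of Gpnmb overlapped that of Lpl. By this measure the adaptor Tyrobp was above its receptor Trem2, and their ranges did not overlap. In CPM the ranges met, at 7.62 to 14.5 for Tyrobp and 3.84 to 9.89 for Trem2. The gap thus depends on the transcript lengths used, which were 564 bases for Tyrobp and 1088 bases for Trem2.

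Tyrobp (ENSMUSG00000030579, chromosome 7, 30413760 to 30417585 on GRCm38) had 201 and 218 reads in left 1037 and left 1039, which is 13.02 and 14.47 CPM. In right 1037, 1038 and 1039 it had 143, 115 and 134 reads, which is 9.17, 7.62 and 9.15 CPM. The lowest left bulb lay above the highest right bulb. The left bulbs averaged 13.7 ± 1.02 CPM (SD, n = 2) and the right bulbs 8.65 ± 0.890 CPM (SD, n = 3). The log2 fold change, left over right, was 0.59 (SE 0.14, edgeR adjusted p = 0.0336), and within mice 1037 and 1039 the log2 ratio of the CPM was 0.51 and 0.66. The call was close to the threshold. It ended with the mouse as a block (0.50, edgeR adjusted p = 0.0525), without any single one of the 5 libraries (adjusted p from 0.0560 to 0.142), and with all 6 libraries (0.20, adjusted p = 0.880).

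Trem2 (ENSMUSG00000023992, chromosome 17, 48346401 to 48354147) had values in the same order but a wider spread. The left bulbs 1037 and 1039 held 8.36 and 9.89 CPM, from 129 and 149 reads. In right 1037, 1038 and 1039 it stood at 6.41, 3.84 and 7.65 CPM, from 100, 58 and 112 reads. The groups did not overlap, and right 1038 lay below the other right bulbs, with a 95% exact Poisson interval of 2.92 to 4.97 CPM against 6.29 to 9.20 CPM in right 1039. The left bulbs averaged 9.12 ± 1.08 CPM (SD, n = 2) and the right bulbs 5.97 ± 1.94 CPM (SD, n = 3). The log2 fold change was 0.53 with a 95% interval of -0.03 to 1.09 (edgeR adjusted p = 0.226), and Trem2 was not called. Without right 1038 it was 0.30 (adjusted p = 0.439).

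The levels of Trem2 and Tyrobp were set beside markers of microglia. Of 13 markers of homeostatic microglia, that is of genes typical of resting microglia, 12 had a positive log2 fold change. None of these 12 was called, and of all 14412 genes tested 7345 had a positive value. The remaining marker, Sall1, fell by 0.34 (SE 0.06, adjusted p = 0.00693), beside 6.46% of all genes tested called lower. Its level of 171 to 212 CPM was above that of every other marker on the list, and it was left out of the sum after its values were seen. The other 12 markers together held 334 and 377 CPM in the left bulbs and 286, 274 and 300 CPM in the right bulbs, and none of them was at 0. Per 100 CPM of this sum, Tyrobp stood at 3.90 and 3.84 on the left and at 3.21, 2.78 and 3.05 on the right, so its groups stayed apart. Trem2 stood at 2.50 and 2.63 on the left and at 2.24, 1.40 and 2.55 on the right. Its groups overlapped only through left 1037 and right 1039, at 2.50 and 2.55. With Sall1 the marker sum was 505 and 549 CPM on the left and 481, 486 and 510 CPM on the right, with overlap. Both ratios hold for the sum of 12 markers only, and they were not computed with Sall1. The part of the number of microglia in these differences was not tested.

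Of the genes of digestion, Cd68 was not called and Cst7 was too low to be tested. Cd68, a lysosomal glycoprotein used as a marker of phagocytic macrophages, stood at 6.87 and 4.71 CPM in left 1037 and left 1039 and at 5.90, 5.30 and 6.14 CPM in the right bulbs. The left bulbs lay on either side of all the right ones. Its log2 fold change was -0.08 with a 95% interval of -0.54 to 0.39 (edgeR adjusted p = 0.860), and it was 0.0036 when scaled by total library size. Cst7, cystatin F, an inhibitor of lysosomal cathepsins and a gene that resting microglia hardly make, had 2 reads in left 1037, 7 in left 1039, and 0, 1 and 0 in the right bulbs. It did not pass the filter on low counts. The ratio of its summed reads over summed library totals, left over right, was 13.4 with a 95% exact interval of 1.85 to 586. This interval covers counting error only, and 7 of the 9 left reads came from left 1039. With no filter on low counts edgeR gave Cst7 an adjusted p of 0.190.

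Gpnmb, a membrane glycoprotein of lysosomes and melanosomes (ENSMUSG00000029816, chromosome 6, 49036546 to 49070929), was lower on the left. The left bulbs 1037 and 1039 held 6.54 and 3.98 CPM, from 101 and 60 reads. In right 1037, 1038 and 1039 it stood at 9.81, 11.7 and 9.83 CPM, from 153, 177 and 144 reads. All right bulbs lay above both left bulbs. Averages were 5.26 ± 1.81 CPM for left bulbs (SD, n = 2) and 10.5 ± 1.10 CPM for right bulbs (SD, n = 3). The log2 fold change of Gpnmb was -1.07 (SE 0.22, edgeR adjusted p = 0.0146), the largest change of the 9 genes tested. The within-mouse log2 ratio was -0.58 in mouse 1037 and -1.30 in mouse 1039. The call ended without right 1038 (-0.98, adjusted p = 0.0532), without left 1039 (-0.75, adjusted p = 0.0624) and with all 6 libraries (-1.46, adjusted p = 0.554).

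Spp1, the secreted phosphoprotein osteopontin (ENSMUSG00000029304, chromosome 5, 104435118 to 104441050), was lower in both left bulbs by a similar amount. The left bulbs 1037 and 1039 held 42.2 and 37.8 CPM, from 651 and 570 reads. In right 1037, 1038 and 1039 it stood at 66.4, 51.4 and 60.4 CPM, from 1035, 776 and 885 reads. The groups did not overlap. Averages were 40.0 ± 3.07 CPM for left bulbs (SD, n = 2) and 59.4 ± 7.54 CPM for right bulbs (SD, n = 3). The log2 fold change of Spp1 was -0.65 (SE 0.11, edgeR adjusted p = 0.00731), and the within-mouse log2 ratio was -0.65 in mouse 1037 and -0.68 in mouse 1039. The call held without each of the 5 libraries (adjusted p from 0.00519 to 0.0360) and ended with all 6 libraries (-1.22, adjusted p = 0.680).

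Apoe and Lpl were not called. Apoe, the main lipid carrier of the brain, stood at 1835 and 1531 CPM in left 1037 and left 1039, and at 1829, 1916 and 1859 CPM in the right bulbs. Left 1037 lay within the range of the right bulbs and left 1039 below all of them. Its log2 fold change was -0.23 with a 95% interval of -0.41 to -0.05 (edgeR adjusted p = 0.107). DESeq2 called it (adjusted p = 0.0388), and so did edgeR without left 1037 (-0.37, adjusted p = 0.00466). Lpl, the enzyme that releases fatty acids from lipoproteins, stood at 2.72 and 3.78 CPM on the left and at 3.34, 4.64 and 4.03 CPM on the right, with overlap. Its log2 fold change was -0.38, and the 95% interval of -0.95 to 0.19 (adjusted p = 0.402) is wide at 42 to 70 reads per library.

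Axl and Cd9, surface proteins, had positive values and did not pass. Axl, a receptor that binds Gas6 on the membranes of dying cells, stood at 74.2 and 70.2 CPM on the left and at 62.3, 68.4 and 63.2 CPM on the right. Its log2 fold change was 0.08 with a 95% interval of -0.08 to 0.23 (edgeR adjusted p = 0.548), and it was -0.06 with all 6 libraries. Cd9, a tetraspanin, stood at 63.2 and 51.9 CPM on the left and at 48.5, 47.4 and 45.0 CPM on the right. Its log2 fold change was 0.21 with a 95% interval of -0.002 to 0.42 (adjusted p = 0.206). In CPM neither gene overlapped between the groups. Of the 9 genes tested, Trem2, Tyrobp, Axl and Cd9 lay without overlap above on the left, beside 33.2% of all genes tested, and Spp1 and Gpnmb below, beside 13.2%. After TMM scaling (edgeR's correction for differences in library composition), Axl overlapped and Apoe lay below, and 20.1% of all genes lay above and 21.9% below.

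**Figure D2:**
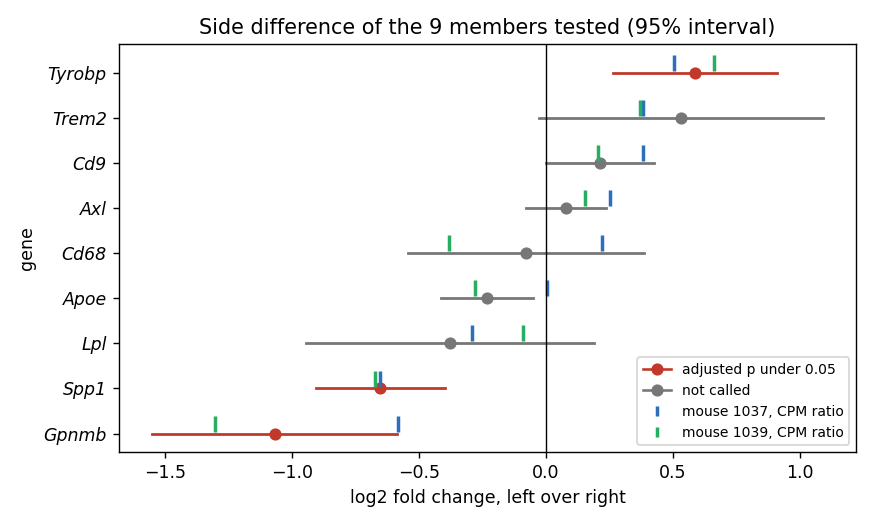
Log2 fold change, left over right, of the 9 genes tested in 5 libraries (horizontal axis), with the 95% interval of edgeR's quasi-likelihood fit as a line. Red marks genes called at an adjusted p under 0.05, and blue and green ticks the log2 ratio of the CPM within mice 1037 and 1039. Spp1 has ticks of -0.65 and -0.68, while Cd68 has ticks on either side of 0.

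The genes that work with Trem2 and Tyrobp inside the cell did not pass. Of 12 genes of their signalling, among them the kinases Syk and Btk, the phospholipase Plcg2 and the phosphatase Inpp5d, 11 were tested, 0 were called and the median log2 fold change was 0.10. Across all genes tested the median was 0.005. The smallest p belonged to Blnk, an adaptor, with 0.77 (adjusted p = 0.123), and to Card9, also an adaptor, with 0.46 (adjusted p = 0.289). At an unadjusted p under 0.05 stood 1 of the 11, beside 3573 of all 14412 genes tested. The other TAM receptors and their ligands, which are Mertk, Tyro3, Gas6 and Pros1, were not called either, and the smallest p belonged to Tyro3 with -0.20 (adjusted p = 0.114) and Gas6 with -0.07 (adjusted p = 0.654).

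Of 16 tested opsonins, which tag material for uptake, and uptake receptors 4 rose and 0 fell, with a median of 0.44, beside 3.16% of all genes tested called higher and 6.46% called lower. These were C4b, C1qc, C1qb and C1qa, all components of complement, with log2 fold changes of 1.40, 0.61, 0.56 and 0.45 (adjusted p = 1.56e-04, 0.00775, 0.0156 and 0.0290). C4b and its near-identical copy C4a can share reads, so its value is uncertain. C1qc had 29.5 and 28.7 CPM on the left and 16.5, 17.4 and 20.2 CPM on the right, without overlap. The calls of C1qa and C1qb ended without left 1037 or right 1038, and that of C1qa also without right 1039 (adjusted p up to 0.119). The smallest p after these belonged to the Fc receptor chain Fcer1g, like Tyrobp an adaptor of immune receptors, which had 0.93 (adjusted p = 0.0985) and was not called.

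Among 18 genes of lysosomes 2 rose and 1 fell, with a median of 0.10, beside shares of 3.16% and 6.46% over all genes tested. Ctss, cathepsin S, a protease of microglia, rose by 0.57 (SE 0.10, adjusted p = 0.00966), with 62.0 and 62.5 CPM on the left and 43.7, 33.9 and 41.4 CPM on the right. Grn, progranulin, rose by 0.33 (adjusted p = 0.0239), a call that ended on leaving out left 1039 or either of right 1037 and right 1038 (adjusted p up to 0.110). Mitf, a transcription factor of lysosomal and melanocyte genes, fell by 0.84 (SE 0.13, adjusted p = 0.00475), with 31.7 and 22.4 CPM on the left and 46.4, 46.5 and 44.0 CPM on the right. All right bulbs lay above both left bulbs, as for 13.2% of all genes tested. Its relatives Tfeb and Tfe3 had 0.32 and -0.13 (adjusted p = 0.242 and 0.310) and were not called.

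Of 8 tested receptors that bind osteopontin, 1 rose and 1 fell, beside 3.16% and 6.46% of all genes tested. Cd44, which also binds hyaluronan, rose by 1.68 (SE 0.28, adjusted p = 0.00655), with 4.99 and 5.24 CPM on the left and 1.28, 2.05 and 1.16 CPM on the right. The integrin subunit Itgav fell by 0.58 (SE 0.07, adjusted p = 0.00142), with 149 CPM in each left bulb and 224, 209 and 198 CPM in the right bulbs. The other 6 were not called, and the list's median was -0.16. Both calls held without each of the 5 libraries (adjusted p up to 0.0310 and 0.00746).

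Of 16 tested genes of lipid handling 2 rose and 0 fell, with a median of 0.001, against 3.16% called higher and 6.46% called lower over all genes tested. They are Vldlr and Lrp8, receptors for apolipoprotein E and for reelin, which rose by 0.34 and 0.27 (adjusted p = 0.00527 and 0.0411). The call of Lrp8 ended on leaving out left 1039 or either of right 1037 and right 1038 (adjusted p up to 0.130). Of 14 tested further genes of the disease-associated state 1 rose and 1 fell, with a median of 0.27 and the same shares over all genes. Csf1, a growth factor of macrophages, rose by 0.51 (adjusted p = 0.0133), and without left 1039 it was not called (adjusted p = 0.0712). Igf1, a growth factor that neurons also make, fell by 1.09 (SE 0.13, adjusted p = 0.00148), with 52.2 and 35.6 CPM on the left and 89.1, 91.4 and 85.2 CPM on the right. Itgax, a surface marker of that state, had 0.80 (adjusted p = 0.240) at 0.751 to 2.27 CPM in the 5 libraries. Of 6 tetraspanins other than Cd9 none was called, and Cd82 and Cd81 had the smallest p, with -0.28 and 0.12 (adjusted p = 0.166 and 0.195). In all, 13 of 91 genes of these lists were called, 10 higher and 3 lower, beside 9.62% of all genes tested called, 3.16% higher and 6.46% lower. Each list is described by its counts, and none was tested as a set.

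**Figure D3:**
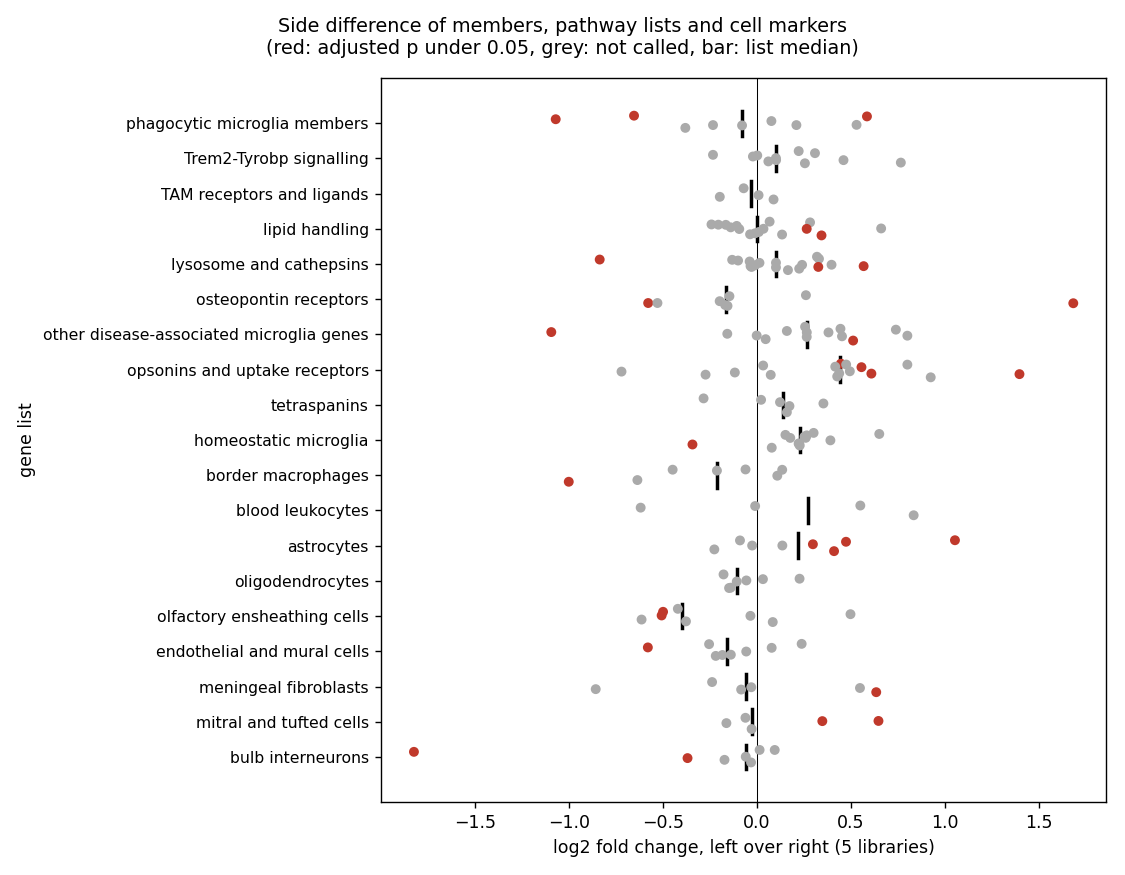
Log2 fold change, left over right, in 5 libraries (horizontal axis) of the genes tested in each list (rows), with called genes in red, others in grey and list medians as black bars. The 9 tested phagocytic genes lie on both sides of 0, while 13 of 16 opsonins and uptake receptors and 12 of 13 homeostatic markers lie above it. Of all 14412 genes tested 7345 lie above 0.

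Some markers of other cells that make some of the 10 genes were called too, and the shares to set beside their counts are the 3.16% of all genes tested called higher and the 6.46% called lower. Of 8 astrocyte markers 4 rose (Gfap, Aqp4, Clu and Sox9, by 1.05, 0.30, 0.41 and 0.47) and 0 fell. Among those not called, Gja1 was positive (0.14), and Aldh1l1, Slc1a2 and Slc1a3 were negative (-0.23, -0.09 and -0.02). All 8 together held 3425 and 3484 CPM on the left and 2712, 2966 and 2998 CPM on the right. Gfap made up 543 and 578 CPM of the left sums and 221, 248 and 297 CPM of the right sums. Of 8 markers of olfactory ensheathing cells, which wrap the axons of sensory neurons, 2 fell (S100b and Mybpc1, by 0.51 and 0.50) and 0 rose. In the library labelled left 1038 these 2 stood at 280 and 127 CPM, above the 5 other libraries. Prss56 and Ngfr had positive values of 0.50 (edgeR adjusted p = 0.0758) and 0.09, and the other 6 markers were negative. The sums were 737 and 464 CPM on the left and 744 to 804 CPM on the right. Fabp7 made up 336 of these 737 CPM and 162 of the 464 CPM. Left 1039 was the lower left bulb in this sum and in Spp1, Gpnmb, Cd68, Axl, Cd9 and Apoe. For Trem2, Tyrobp, Cst7 and Lpl it was the higher one. It was also lower in the sums for border macrophages, blood leukocytes, fibroblasts, and mitral and tufted cells. The sums for homeostatic microglia, astrocytes, oligodendrocytes, vessels and interneurons were higher in left 1039 than in left 1037. Of 7 tested border macrophage markers 1 fell, which was Lyve1 (by 1.0, adjusted p = 0.0476). These markers held 36.0 and 26.4 CPM on the left and 35.1 to 40.3 CPM on the right. Markers of blood leukocytes held 13.1 and 10.9 CPM on the left and 7.22 to 10.0 CPM on the right, most of it Ptprc, which microglia make as well. Of these markers Cd3e and Nkg7, which lymphocytes make, were at 0 in at least 1 of the 5 libraries, and 0 of 4 tested were called. Sox9 and S100b lost their calls when either left 1039 or right 1037 was dropped, with an adjusted p of at most 0.0710 and 0.0734. Mybpc1 and Lyve1 lost theirs when left 1039 or any 1 right bulb was dropped, with an adjusted p of at most 0.235 and 0.217.

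Further marker lists are set beside the same shares over all genes. Of 7 oligodendrocyte markers none was called, of 8 endothelial and mural markers Kdr fell by 0.58, of 6 fibroblast markers Igf2 rose by 0.64, and of 7 interneuron markers Th and Sp8 fell by 1.82 and 0.37. Of the 6 fibroblast markers 2 had positive and 4 negative values, with a median log2 fold change of -0.06. Tbx21 and Reln rose by 0.65 and 0.35 among 5 mitral and tufted cell markers. The 3 others, Cdhr1, Slc17a7 and Eomes, were negative (-0.16, -0.03 and -0.06) and were not called. Kdr lost its call when left 1039, right 1038 or right 1039 was dropped (adjusted p at most 0.103). Reln lost its call when left 1037 or any 1 right bulb was dropped (adjusted p at most 0.209), and Sp8 when left 1037 was dropped (adjusted p = 0.0550). The summed levels of these lists, in left against right bulbs, were 2002 and 2378 against 1915 to 2415 CPM for oligodendrocytes, 310 and 329 against 306 to 357 CPM for vessels and 458 and 362 against 288 to 400 CPM for fibroblasts. They were 2539 and 2135 against 2119 to 2178 CPM for mitral and tufted cells and 1271 and 1485 against 1436 to 1628 CPM for interneurons, and these sums overlapped between the sides. The part of any of these cells in the values of the 10 genes was not tested.

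In the library labelled left 1038 all 10 genes were below every other library except Cst7, which was at 0 there as in 2 right bulbs. The homeostatic markers give a scale for this library: the mean of the 3 right bulbs was 3.94 times its level at the median of the 12 markers (2.50 to 19.7 times). Trem2 and Tyrobp stood at 2.13 and 3.71 CPM, and the right bulbs held 2.80 and 2.33 times these levels. Cd68 and Apoe were close to these, at 2.11 and 2.30 times. Axl and Cd9 differed little, at 1.32 and 1.10 times. Spp1 and Lpl were nearly missing, with 7 and 4 reads, and the right bulbs held 124 and 14.6 times as much, while for Gpnmb the ratio was 7.62. Per 100 CPM of the 12 homeostatic markers Tyrobp stood at 4.44 in this library, above all 5 others, and Trem2 at 2.55, within their range. With 1 library of this kind these are values without a test.

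**Figure D4:**
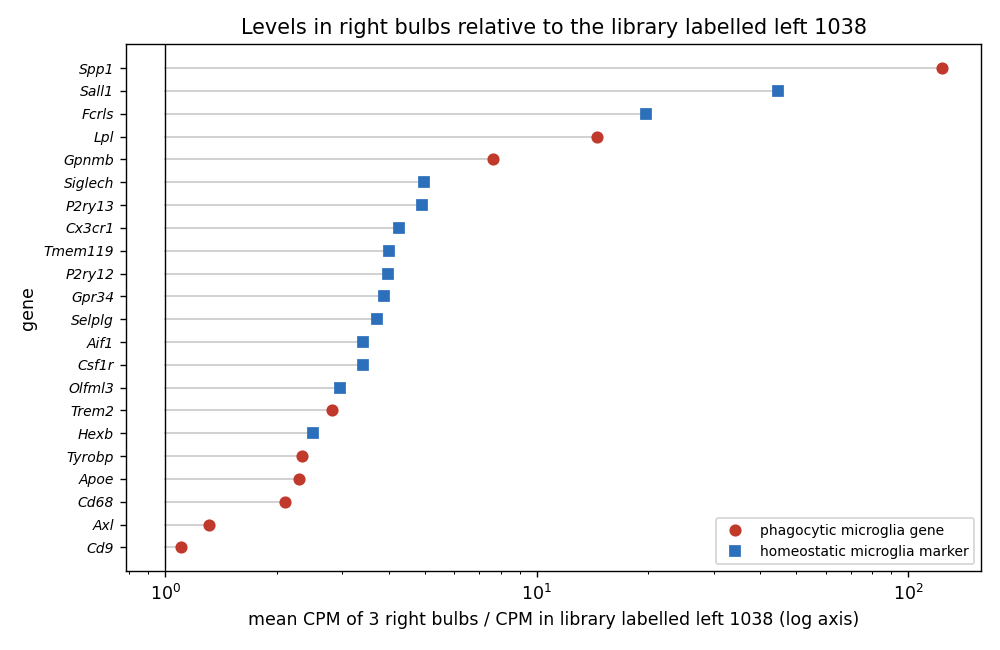
Mean CPM of the 3 right bulbs divided by the CPM in the library labelled left 1038 (horizontal log axis), for 9 of the 10 genes (red circles) and the 13 homeostatic markers (blue squares); Cst7 is left out because it had 0 reads there. Spp1 stands at 124 and Lpl at 14.6, whereas Cd9 and Axl stand at 1.10 and 1.32.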

How the data were processed

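Polyadenylated RNA of 6 libraries was sequenced. The deposited table holds read counts per gene as whole numbers without normalization, per the file headers, and RPKM values, which the authors derived from count, library total and deposited length (recomputed values differed by at most 3.64e-11). For 78.3% of genes that length was the genomic span to within 1 base, so RPKM was not used for levels. The build GRCm38 and the tools DESeq 1.18.0, HTSeq 0.6.1p2, TopHat2 and cutadapt 1.2.1 are named, per the submitters' processing notes. The handling of strand and of reads with several positions is not given here. No span of the 10 genes overlapped another gene of the table (GENCODE M21, GRCm38).

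Counts were tested with edgeR 4.0.16 (TMM, filterByExpr, glmQLFit, glmQLFTest; R 4.3.3), fitting side alone, and p-values were adjusted by Benjamini-Hochberg over all genes of the fit. SE is the absolute log2 fold change divided by the square root of F. All adjusted p are two-sided. Limma-voom 3.58.1 and DESeq2 1.42.0 were alternatives. Both bulbs of a mouse come from the same animal, so the labels pair them; the deviations from the group means correlated at 0.242 and 0.259 in mice 1037 and 1039. The fit without a block was the main one, and the block rests on these 2 mice. The genes and lists were chosen with earlier results of these data known. All 10 genes were named; of each other list, called genes, or the 2 with the smallest p. Genes named outside this rule, which are Syk, Btk, Plcg2, Inpp5d, Tfeb, Tfe3, Fcer1g and Itgax, and lymphocyte markers at 0, were chosen after their values were seen. On simulated counts the test recovered 71.6%, 88.1% and 97.0% of genes changed 1.5-fold, 2-fold and 4-fold, with 7.07% of calls false. In it 67, 67 and 66 of 14412 genes were changed. Counts were drawn for each library independently, with the dispersions of the fit and no effect of the mouse. These rates describe that setting and not the paired bulbs.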

Additional observations from a re-analysis of the deposited data

Results flagged for a closer look

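The library labelled left 1038, which entered no comparison of the 5 libraries, held 4456 CPM summed over 6 genes of cerebellar neurons. The other 5 libraries held 18.8 to 28.0 CPM, so this signal lay far above the level in the open-side bulbs.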

How the results depend on the processing

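Scaling by RLE size factors, filters of 1 CPM in 2 libraries or none, and limma-voom left each of the 9 tested genes on its side of the threshold. The calls of Tyrobp, Spp1 and Gpnmb held under total library size too, where Cd68 turned to 0.0036 and the split of all calls went from 456 higher and 931 lower to 975 and 589. The medians of the TAM, mitral, interneuron and fibroblast lists then changed sign to 0.05, 0.05, 0.02 and 0.03. DESeq2 added Apoe (-0.23). With the mouse as a replicate block Tyrobp was not called by edgeR (0.50) or DESeq2 (0.50, adjusted p = 0.733). Under that block 1553 genes, 2 of the 10 and 15 pathway genes were called by edgeR, and 432, 1 and 4 by DESeq2, whose adjusted p was missing for Trem2, Gpnmb, Cd68 and Lpl. With all 6 libraries 0 genes were called, 0 of the 10 and 0 pathway genes. Tyrobp then had 0.20, Spp1 -1.22, Gpnmb -1.46 and Axl -0.057. Leaving out both bulbs of mouse 1038 is the same fit as leaving out right 1038, with 660 genes and 1 of the 10 called, Tyrobp at 0.50 and Gpnmb at -0.98. Leaving out each library gave 660 to 1096 called genes (669 without right 1037, 885 without left 1039) and 1 to 3 of the 10. The log2 fold change then ranged from 0.50 to 0.66 for Tyrobp, -1.47 to -0.75 for Gpnmb, -0.37 to 0.18 for Cd68 (0.18 without left 1039) and -0.37 to -0.10 for Apoe. The pathway genes called ranged from 9 to 13. The cause of these changes was not tested. A side left with 1 library is assumed to vary like the other. Genes under about 10 CPM, such as Trem2, Lpl, Cd68 and Cst7, rest on at most 149 reads per library, which limits their precision. Gpnmb, which was called, has a similar limit, with 60 to 177 reads per library in the 5 libraries.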
